A study of Bos indicus with 11 samples.

Results

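The insulin-like growth factor (IGF) system was examined in the day 6 endometrium of beef cows. Its members were taken as the rows of the deposited table whose gene symbol was that of a ligand (IGF1, IGF2), a receptor (IGF1R, IGF2R) or a binding protein (IGFBP1 to IGFBP6). All 10 members were found among the 24616 rows of the table. Of these members, 9 had a mean of at least 5 normalized counts over all cows and were among the 15081 genes tested, and IGFBP1 was below this level.

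RNA-Seq was performed on endometrial biopsies from 11 healthy, multiparous Nelore (Bos indicus) cows, which the study describes as not lactating. Estrus was synchronized in all cows, all were artificially inseminated (AI) at detected estrus, and the labels name no further treatment of either group. A single biopsy per cow was taken on day 6 from the horn opposite the corpus luteum, and cows were placed afterwards, by their diagnosis on day 30, in the pregnant (P, n = 6) or non-pregnant (NP, n = 5) group. Each cow was 1 replicate. The labels do not say whether an embryo was present on day 6, so NP joins cows with any reason for not being pregnant on day 30, and the biopsied horn is not the one next to the ovulating ovary.

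IGF1 and IGF2 are small secreted peptides related to insulin. They act through IGF1R, a tyrosine kinase receptor that signals through PI3K and AKT, whereas IGF2R binds IGF2 without such a kinase and carries it to lysosomes for degradation. The IGFBPs hold the ligands in extracellular fluid and limit or prolong their access to the receptors, and proteases release the ligands by cutting the IGFBPs. In the ruminant uterus, transcripts of the ligands and of several IGFBPs are found in the stroma and the muscle layer as well as around the glands, and the IGFs are counted among the growth factors that reach the early embryo in uterine fluid.

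Values are normalized counts, which are reads counted per gene divided by a size factor for each cow, and 1 read was worth 0.784 to 1.14 normalized counts. Between 9290949 and 13508711 reads fell on genes in P cows and between 9783673 and 13569085 in NP cows. Counts were not divided by gene length, so that values are compared between cows for 1 gene and not between genes. Log2 fold changes are NP over P on the log2(normalized count + 1) scale, from limma, with the Benjamini-Hochberg adjustment over the 15081 genes tested and a threshold of 0.1. Since 1 biopsy was taken per cow, p-values set differences against the spread between these cows.

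Cows P617 and P1541 stood apart from the other cows. On the first principal component of all genes tested, which held 46.6% of the variance, P617 was at -166 and P1541 at -59.2, and the other cows were between -8.58 and 43.3. Markers of smooth muscle, the tissue under the endometrium, were highest in the same cows. The mean of log2(normalized count + 1) over 9 such markers was 15.50 in P617 and 15.12 in P1541, followed by 14.42 in NP638, and the summed level of the markers was 85661 to 671570 in P cows and 42698 to 287789 in NP cows. The summed level of 10 epithelial markers was 2176 to 24305 in P cows, with P617 the lowest, and 10409 to 16253 in NP cows. The corresponding sums were 124504 to 369691 and 259023 to 354585 for 8 stromal markers, 4381 to 13594 and 8212 to 15103 for 8 endothelial markers, and 421 to 935 and 749 to 1573 for 8 immune markers. No marker was at 0 in every cow, including EPCAM, KRT8 and FOXA2 for glands and PDGFRA and VIM for stroma. In biopsies, fewer cells of a type and less RNA per cell cannot be told apart. GEO's labels place P617 among the P cows, whereas a list of the cows given with the study names it non-pregnant. The labels were followed, and results are also given without P617 and P1541. Both are P cows picked from these same data, so p-values without them are not independent support.

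No member passed the threshold in the comparison of NP with P cows, and 0% of all genes tested did. At an unadjusted p-value under 0.05 there were 2 members with higher expression in NP cows, IGF2 and IGFBP2, where 5.49% of all genes were found, and 0 members with higher expression in P cows, where 2.35% of all genes were found. Values were above 0 for the log2 fold change in 7 of the 9 members tested and below 0 in IGF1R and IGFBP5. The median over the members was 0.24, against 0.0018 over all genes, of which 50.2% were above 0. In none of the members did every cow of 1 group lie above every cow of the other, which was found in 1.09% of all genes.

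**Figure D1:**
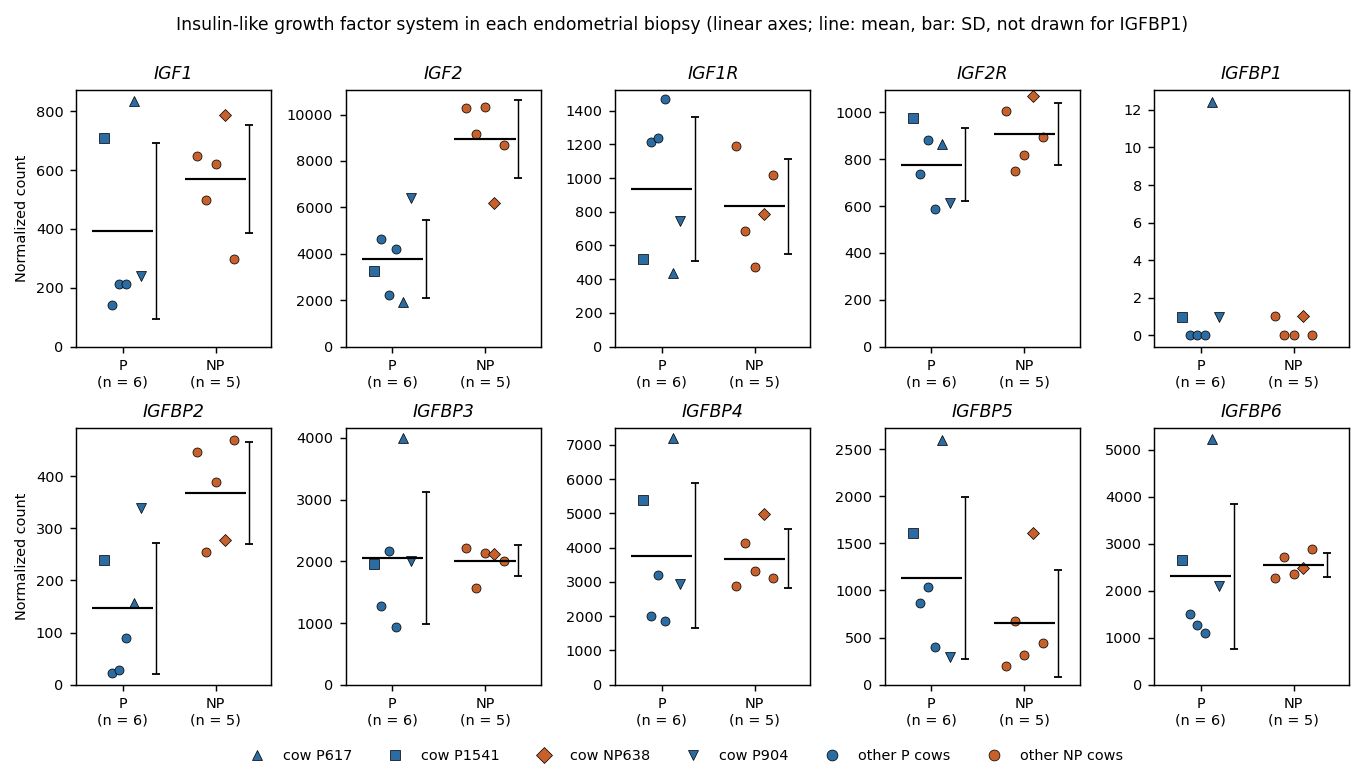
Normalized counts of the 10 members in each cow, by group (linear vertical axes; points are cows, lines are group means and bars are SD, left out for IGFBP1). For IGF2, 4 of the 5 NP cows lay between 8691 and 10344, above the highest P cow at 6413, and for IGF1 cows P617 and P1541 lay far above the other P cows.

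IGF2 (ENSBTAG00000013066), the ligand best known for growth of the fetus and placenta, was the member with the smallest p-value. In P cows it ranged from 1911 normalized counts in P617 to 6413 in P904, with a median of 3732. In NP cows it was 6199 in NP638, 8691 in NP856, 9151 in NP2541, 10270 in NP238 and 10344 in NP2810. The groups overlapped only because P904, the highest P cow, lay above NP638, the lowest NP cow. Means were 3776 ± 1676 in the P group (SD, n = 6) and 8931 ± 1685 in the NP group (SD, n = 5), and the log2 fold change was 1.34 (SE 0.30, 95% confidence interval 0.69 to 1.99), or 2.53-fold. A two-sided exact permutation test gave p = 0.00649, not adjusted over the members, where 0.00216 is the smallest that 462 splits allow. The adjusted p-value in limma was 0.264. The call depended on the test. DESeq2 on the recovered reads gave IGF2 a log2 fold change of 1.24 and an adjusted p-value of 0.0175, so that IGF2 was the only member called by DESeq2, which called 1.13% of all genes as higher in NP cows. edgeR gave an adjusted p-value of 0.323.

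Among the limma fits that left out a single cow, only the one without P904 called IGF2. Without P904 the log2 fold change was 1.52 and the adjusted p-value 0.0445, in a fit that called 1.11% of all genes as higher in NP cows, and leaving out any other cow called no member. Without P617 and P1541 the log2 fold change was 1.11 (adjusted p = 0.188 in limma; two-sided exact permutation p = 0.0238). IGF2 was therefore higher in NP cows in every set of cows examined, by 1.11 to 1.52 on the log2 scale.

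IGF1 (ENSBTAG00000011082), the ligand through which growth hormone exerts much of its effect on growth, divided the P cows. It was 142.8 in P1631, 212.4 in P1753, 212.7 in P2396 and 238.5 in P904, but 709.5 in P1541 and 834.8 in P617, the cows with the highest smooth muscle markers and the highest mean log2 level of stromal markers. In NP cows it was 296.8 in NP856, 498.7 in NP2541, 621.8 in NP2810, 648.3 in NP238 and 787.3 in NP638. The first 4 P cows were thus below every NP cow, and the other 2 were above all NP cows but NP638 or above all of them. Means were 392 ± 299 in the P group (SD, n = 6) and 571 ± 184 in the NP group (SD, n = 5). Over all cows the log2 fold change of IGF1 was 0.80 (SE 0.46, 95% confidence interval -0.21 to 1.81, adjusted p = 0.741 in limma), with a two-sided exact permutation p-value of 0.158.

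When P617 and P1541 were left out, IGF1 had 202 ± 41.1 normalized counts in the P group (SD, n = 4) and did not overlap between the groups. Its log2 fold change was then 1.45 (SE 0.27, 95% confidence interval 0.85 to 2.05), with an exact permutation p-value of 0.0159, where 0.00794 is the smallest that 126 splits allow, and an adjusted p-value of 0.131 in limma. The cows left out were the highest P cows for IGF1 and were picked from these same data, so this separation is a description. With all cows and the smooth muscle score as a covariate, the log2 fold change was 1.48 (adjusted p = 0.588 in limma). IGF1 therefore did not pass the threshold in either fit. The stromal score, the mean of log2(normalized count + 1) over 8 markers, divided the cows in the same way, at 14.28 in P617 and 14.26 in P1541, 13.95 to 14.23 in NP cows and 12.85 to 13.63 in the other 4 P cows. By the summed level of these markers, P617 (304067) was below NP2810 (354585), NP238 (333788) and NP638 (307951). With the stromal score as a covariate, chosen after seeing the data, the log2 fold change of IGF1 was -0.083 (unadjusted p = 0.745 in limma).

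IGF1R (ENSBTAG00000021527), the signalling receptor, ranged from 436 in P617 to 1469 in P2396 in P cows, with a median of 979. In NP cows it was 469.9 in NP2810, 688.5 in NP2541, 788.3 in NP638, 1020 in NP856 and 1193 in NP238. The groups overlapped over nearly their whole range, and P617 and P1541 (517.8) were the lowest P cows here while they were the highest for IGF1. Its log2 fold change was -0.10 (SE 0.35, 95% confidence interval -0.87 to 0.67; adjusted p = 0.956 in limma), and means were 937 ± 427 (SD, n = 6) and 832 ± 282 (SD, n = 5) in P and NP cows.

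IGF2R (ENSBTAG00000002402), the clearance receptor for IGF2, varied the least among P cows of the members tested. It ranged from 587.2 in P2396 to 977.6 in P1541 in P cows, with a median of 802, and was 751.2 in NP2541, 818.5 in NP2810, 892.6 in NP856, 1007 in NP238 and 1070 in NP638. The highest value of a group was 1.66 times the lowest in P cows and 1.42 times in NP cows. IGF2R had a log2 fold change of 0.24 (SE 0.16, 95% confidence interval -0.10 to 0.58; adjusted p = 0.770 in limma), with means of 777 ± 157 (SD, n = 6) and 908 ± 131 (SD, n = 5).

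IGFBP1 (ENSBTAG00000046768), the binding protein that marks the decidua in humans and the luminal epithelium of ruminants later in early pregnancy, was close to absent on day 6. It had 0 reads in 6 of the 11 cows and 1 read in 4, and its highest value was 12.4 normalized counts, from 11 reads, in P617. No fold is given, because all cows but P617 were below a floor of 3 reads.

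IGFBP2 (ENSBTAG00000005596), which binds IGF2 with preference over IGF1, had the largest log2 fold change and the widest range among the members tested. In P cows it ranged from 22.8 in P1631 and 28.2 in P1753 to 340.1 in P904, 14.9-fold in all, with a median of 123. The NP cows had 254.1 in NP2541, 278.0 in NP638, 389.4 in NP2810, 447.1 in NP238 and 470.0 in NP856, a 1.85-fold range. P904 was the only P cow above the lowest NP cow, the same cow that overlapped with NP cows in IGF2. The log2 fold change was 1.89 (SE 0.66, 95% confidence interval 0.46 to 3.32) and means were 146 ± 126 in the P group (SD, n = 6) and 368 ± 97.7 in the NP group (SD, n = 5). The two-sided exact permutation test gave p = 0.0281, not adjusted over the members, and the adjusted p-value in limma was 0.473. This log2 fold change was 2.39 without P617 and P1541 and 1.97 with the smooth muscle score as a covariate, with adjusted p-values of 0.222 and 0.817 in limma.

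IGFBP3 (ENSBTAG00000003994), the main carrier of IGFs in blood, had close means in the groups, 2058 ± 1068 normalized counts in the P group (SD, n = 6) and 2010 ± 255 in the NP group (SD, n = 5). In P cows it ranged from 929 in P2396 to 4006 in P617, with a median of 1984. The NP cows had 1575 in NP2541 and between 1999 and 2217 in the other 4. Every NP cow lay within the range of P cows. For IGFBP3 the log2 fold change was 0.11 (SE 0.30, 95% confidence interval -0.55 to 0.77; adjusted p = 0.943 in limma), an interval that leaves room for a difference in either direction.

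IGFBP4 (ENSBTAG00000008611), an inhibitory binding protein that the protease PAPPA cuts, had 3770 ± 2109 normalized counts in the P group (SD, n = 6) and 3685 ± 861 in the NP group (SD, n = 5). The highest P cows were again P617 at 7214 and P1541 at 5388, and the other P cows were between 1860 and 3202. NP values were 2871 in NP238, 3124 in NP856, 3327 in NP2810, 4124 in NP2541 and 4976 in NP638. IGFBP4 had a log2 fold change of 0.12 (SE 0.34; adjusted p = 0.946 in limma) over all cows and 0.57 (SE 0.21; adjusted p = 0.350) without P617 and P1541. With DESeq2 and edgeR the sign was the opposite, at -0.033 and -0.019, and the same was found for IGFBP3, at -0.034 and -0.020. With the stromal score as a covariate, chosen after seeing the data, IGFBP4 was at -0.51, higher in P cows (adjusted p = 0.0948 in limma). That fit called 3999 of the 15081 genes tested.

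IGFBP5 (ENSBTAG00000007062), which binds to the extracellular matrix and is made by smooth muscle among other tissues, had the widest range among NP cows. It was 197.2 in NP238, 317 in NP2810, 444 in NP856, 681 in NP2541 and 1612 in NP638. In P cows it ranged from 294.1 in P904 to 2598 in P617, with a median of 954, and was 1612 in P1541. NP638, the NP cow with the highest smooth muscle score, was at the level of P1541. For IGFBP5 the log2 fold change was -0.81 (SE 0.63, 95% confidence interval -2.18 to 0.56; adjusted p = 0.799 in limma), and it took the opposite sign, 0.38 (adjusted p = 0.992), with the smooth muscle score as a covariate.

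IGFBP6 (ENSBTAG00000021467), which binds IGF2 with a strong preference, was nearly constant among NP cows, at 2261 in NP238, 2352 in NP2810, 2491 in NP638, 2715 in NP2541 and 2889 in NP856. In P cows it ranged from 1098 in P2396 to 5233 in P617, with a median of 1801. The coefficient of variation was 66.8% in P cows and 10.2% in NP cows. Over all cows the log2 fold change was 0.35 (SE 0.34; adjusted p = 0.837 in limma). After leaving out P617 and P1541 the other 4 P cows, at 1098 to 2092, were all below the NP cows. Its log2 fold change was then 0.81 (SE 0.17, 95% confidence interval 0.42 to 1.19), with an exact permutation p-value of 0.00794, which is the smallest that this design allows, and an adjusted p-value of 0.139 in limma. The cows left out were the highest P cows for IGFBP6 and were picked from these same data, so this separation is a description. Over all cows the exact permutation p-value was 0.4. The stromal scores of the same 4 P cows were also all below those of the NP cows, and with that score as a covariate over all cows the log2 fold change of IGFBP6 was -0.25 (unadjusted p = 0.304 in limma).

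Most members, like most genes tested, varied more among P cows than among NP cows. The coefficient of variation was higher in P cows for 8 of the 9 members tested, IGFBP5 being the exception, and for 71.7% of all genes tested. P617 was the highest or the lowest P cow for 7 of these 9 members and for 63.6% of all genes. Without P617 and P1541 the coefficient of variation was higher in P cows for 6 of the 9 members and for 44.6% of all genes.

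**Figure D2:**
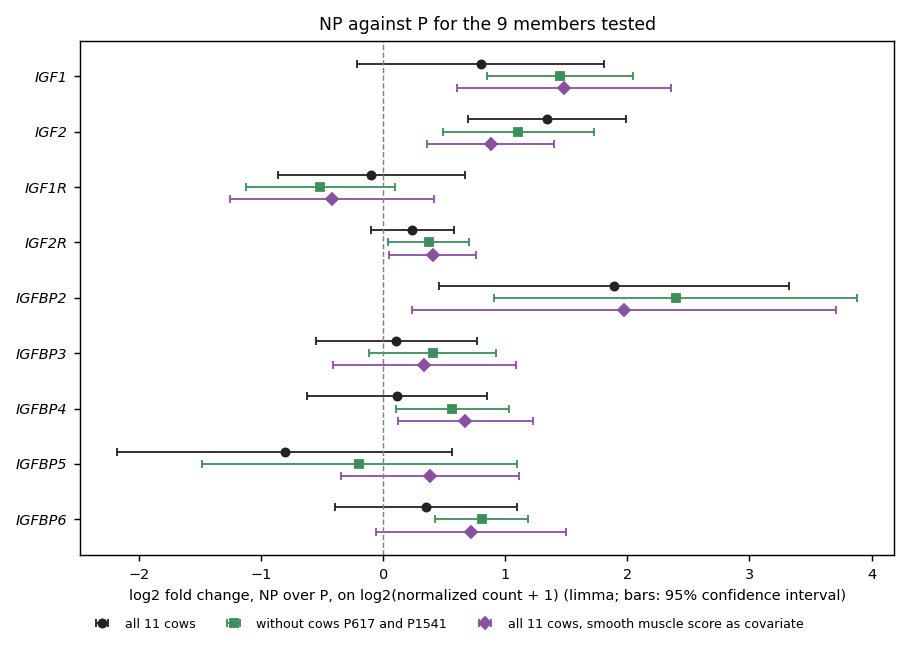
Log2 fold change (NP over P) of the 9 members tested, with 95% confidence intervals from limma, over all 11 cows, without cows P617 and P1541, and with the smooth muscle score as a covariate. IGF2 and IGFBP2 lay above 0 with their whole interval in these 3 fits, which was not so for either with the endothelial score as a covariate (not drawn). The interval of IGF1 crossed 0 over all cows (-0.21 to 1.81) and not in the other fits drawn. With the stromal score as a covariate (not drawn), the intervals of IGF1 (-0.63 to 0.46) and IGFBP2 (-0.34 to 2.22) crossed 0.

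Leaving out P617 and P1541 raised the number of members at an unadjusted p-value under 0.05 from 2 to 6, all higher in NP cows (IGF1, IGF2, IGF2R, IGFBP2, IGFBP4 and IGFBP6), while 7.14% of all genes were found at this level. In 2 members, IGF1 and IGFBP6, the groups then no longer overlapped, with NP cows above P cows, which was found in 2.49% of all genes. None of the members passed the adjusted threshold. Both cows left out were P cows, picked from these same data, and were the highest P cows for IGF1, IGFBP4 and IGFBP6. With the smooth muscle score as a covariate, 5 members had an unadjusted p-value under 0.05 and higher expression in NP cows (IGF1, IGF2, IGF2R, IGFBP2 and IGFBP4), against 4.35% of all genes, and again 0 passed the adjusted threshold. Stromal, endothelial and immune markers also moved with the groups, with 8 of 8, 8 of 8 and 7 of 7 tested markers above 0 in NP over P and median log2 fold changes of 0.62, 0.80 and 0.93. Of these, 2, 7 and 6 had p-values under 0.05 before adjustment in limma. The part of the immune markers in the results was not tested. With the stromal score as a covariate IGF2 was at 1.58 on the log2 scale and IGFBP2 at 0.94 (unadjusted p = 0.134 in limma). With the endothelial score IGF2 was at 0.81, with an interval of -0.02 to 1.64 (unadjusted p = 0.0549 in limma), and IGFBP2 had an unadjusted p-value of 0.101, so that neither was under 0.05. These covariates were chosen after seeing the data.

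The members were then set against the smooth muscle score across the 11 cows. IGF2 was lower in cows with more smooth muscle RNA (Pearson r = -0.811, permutation p = 0.00305, adjusted over the 10 members 0.0152; Spearman rho = -0.864, permutation p = 0.00117, adjusted 0.00585). IGFBP5 was higher in them (r = 0.906, permutation p = 0.00024, adjusted 0.0024; rho = 0.873, permutation p = 0.00091, adjusted 0.00585). The other 8 members had adjusted p-values of 0.106 or more for r. IGFBP4 followed the score with r = 0.627 (permutation p = 0.0402, adjusted 0.106) and IGF1 with r = 0.297 (permutation p = 0.367, adjusted 0.505).

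P617 and P1541 were also the cows farthest from the median score. Without them r was -0.669 for IGF2 (n = 9, permutation p = 0.0459, adjusted 0.229) and 0.824 for IGFBP5 (n = 9, permutation p = 0.00797, adjusted 0.0797), so that both relations kept their direction and 0 of the 10 members passed an adjusted threshold of 0.05. Since the score was lower in most NP cows, the relation was computed within the P cows too. There r was -0.794 for IGF2 (n = 6, exact permutation p = 0.0667, adjusted 0.167; rho = -0.943, exact p = 0.0167, adjusted 0.0833) and 0.864 for IGFBP5 (n = 6, exact permutation p = 0.025, adjusted 0.167; rho = 0.943, exact p = 0.0167, adjusted 0.0833). Within P cows the adjusted p-values were thus above 0.05 for both relations, as for all 10 members. The highest r within P cows was that of IGF1, 0.9 (exact permutation p = 0.0611, adjusted 0.167), with a rho of 0.6 (exact p = 0.242). For IGFBP4 and IGF2R r was 0.834 and 0.732 (exact permutation p = 0.0639 and 0.0917). Over the 9 cows without P617 and P1541, r was -0.153 for IGF1 (permutation p = 0.686). No correlation is given over the 5 NP cows, among which NP638, with the highest score, had the lowest IGF2 and the highest IGFBP5. With the score as a covariate the log2 fold change of IGF2 was 0.88 (SE 0.24, unadjusted p = 0.0034 and adjusted p = 0.588 in limma), against 1.34 without it.

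**Figure D3:**
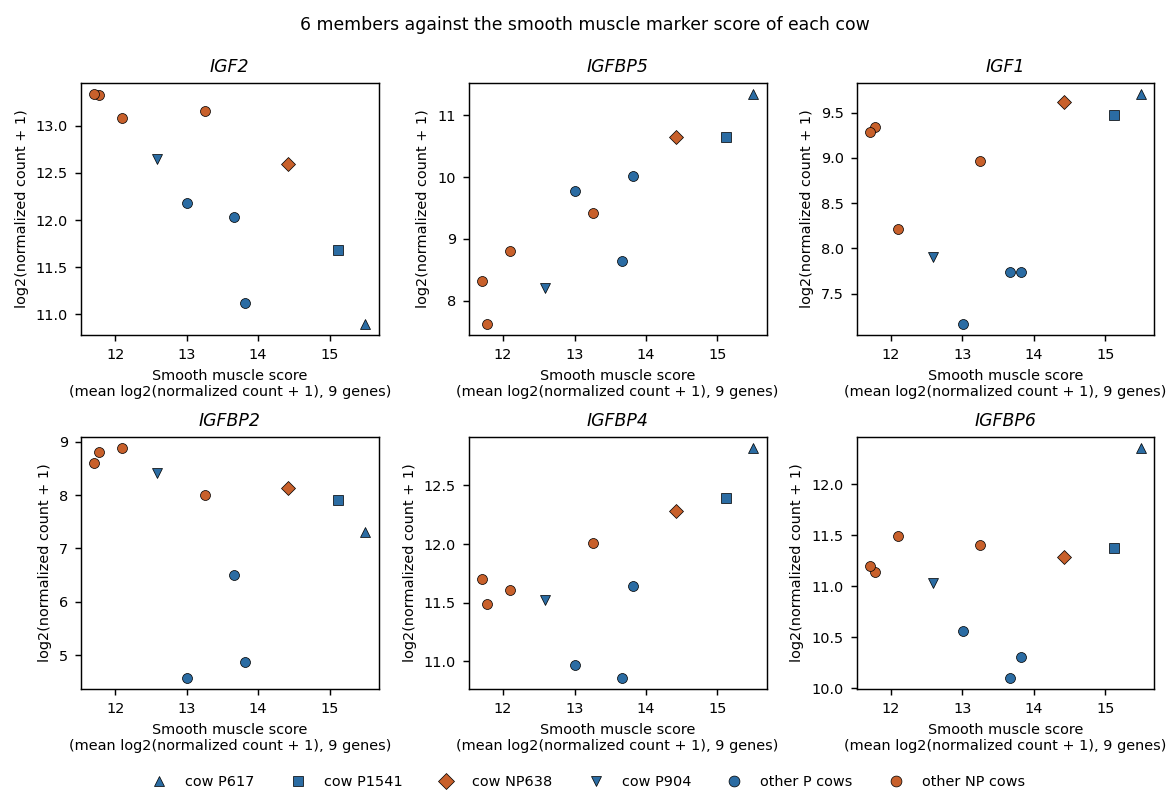
Log2(normalized count + 1) of 6 members against the smooth muscle score of each cow (mean log2(normalized count + 1) of 9 marker genes). IGF2 was lowest and IGFBP5 highest in P617, the cow with the highest score, and for IGF1, IGFBP4 and IGFBP6 the cows P617 and P1541 lay above the other P cows.

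Differences between 2 members within a cow do not depend on its size factor, apart from the pseudocount, and were compared between the groups for 3 pairs. The log2 difference between IGF2 and its clearance receptor IGF2R was 2.18 ± 0.90 in the P group (SD, n = 6) and 3.29 ± 0.45 in the NP group (SD, n = 5). It was larger by 1.10 in NP cows, or 2.15-fold (two-sided exact permutation p = 0.0519, adjusted over the 3 pairs 0.156). P904 at 3.39 and NP638 at 2.53 were the cows in which the groups overlapped most. The difference between IGF1 and IGF1R was -1.44 ± 1.73 in the P group (SD, n = 6) and -0.54 ± 0.84 in the NP group (SD, n = 5), larger by 0.90 in NP cows (exact permutation p = 0.305, adjusted 0.458). Without P617 and P1541 it was larger by 1.97 in NP cows (exact permutation p = 0.0238, adjusted 0.0714).

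The ligands themselves were not shown to differ from each other in their response. IGF2 minus IGF1 was 3.47 ± 1.52 in the P group (SD, n = 6) and 4.02 ± 0.68 in the NP group (SD, n = 5), larger by 0.54 in NP cows (exact permutation p = 0.487, adjusted 0.487). In the absence of P617 and P1541 the sign was the opposite, at -0.34 (exact permutation p = 0.452). None of the 3 differences passed an adjusted threshold of 0.05.

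**Figure D4:**
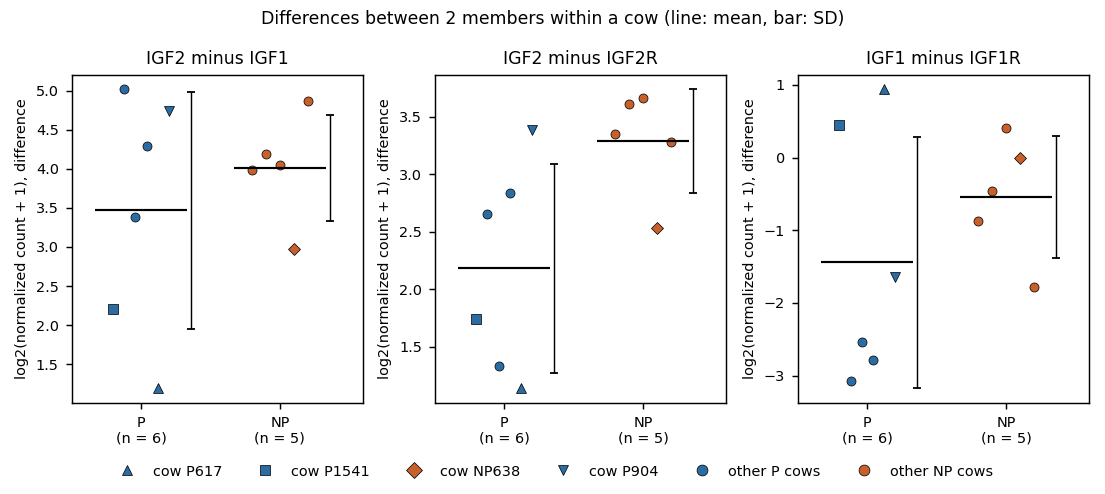
Differences of log2(normalized count + 1) between 2 members within each cow, by group (points are cows, lines are group means, bars are SD). For IGF2 minus IGF2R, 4 NP cows lay between 3.28 and 3.66 and 5 of the 6 P cows lay at or below 2.83, whereas for IGF2 minus IGF1 the groups overlapped widely.

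Other genes of the pathway were taken from a list of 46 genes, of which 44 were found in the table, AKT1 and IRS2 not being analysed here, and 43 were tested. In limma 0 of the 43 passed the adjusted threshold, as did 0% of all genes. At an unadjusted p-value under 0.05 there were 4 genes with higher expression in NP cows (9.3% of the list, against 5.49% of all genes) and 1 with higher expression in P cows (2.33%, against 2.35%). Of the list, 25 genes had a log2 fold change above 0 and 18 below 0, with a median of 0.061. The groups did not overlap in 2 genes, ADAM12 and GRB14, against 1.09% of all genes. These were also the 2 genes of the list called by DESeq2, which called 1.13% of all genes as higher in NP cows and 0.206% as higher in P cows. The study had already reported both genes as differing between the groups in these same cows. For ADAM12 it also reported higher levels in NP cows by quantitative PCR, both in these cows and in other cows of the same experiment. GRB14 was not among the genes it measured by PCR. The list was chosen with earlier results of these data known, so this count is not independent support.

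Among 8 tested proteases, regulators and relatives of the binding proteins, 7 were above 0 and CTSD was below. ADAM12, a metalloprotease that cuts IGFBP3 and IGFBP5, was 71.2 in P617 to 293.2 in P904 in P cows, with a median of 187. NP values were 514.4 in NP2541, 551.9 in NP638, 656.0 in NP856, 868.8 in NP238 and 930.7 in NP2810. The groups did not overlap. Its log2 fold change was 2.08 (SE 0.37, 95% confidence interval 1.28 to 2.89), with an adjusted p-value of 0.216 in limma and 0.00029 in DESeq2. In the set without P617 and P1541 it was 1.60 with an adjusted p-value of 0.0995 in limma, which was under the threshold, in a fit that called 0.0995% of all genes as higher in NP cows. The call was lost when NP638, the next cow by smooth muscle score, was also left out, a set chosen after seeing the data in which limma called 0 genes, with 1538 below 0.05 before adjustment. With the smooth muscle score as a covariate it was 1.49 (adjusted p = 0.588). PAPPA, the protease that cuts IGFBP4, had a log2 fold change of 1.29 (SE 0.84; adjusted p = 0.770 in limma), and STC1, an inhibitor of PAPPA, had 1.18 (SE 0.58; adjusted p = 0.672).

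Among 13 tested receptors and adaptors of growth hormone and insulin, 7 were above 0 and 6 below. GRB14, an adaptor that inhibits the insulin receptor, was 293.2 in P904 to 876.6 in P617 in P cows, with a median of 413. NP values were 133.5 in NP238, 189.3 in NP856, 189.7 in NP638, 270.5 in NP2541 and 278.3 in NP2810. The groups did not overlap, by a narrow margin between P904 and NP2810, and the log2 fold change was -1.08 (SE 0.29), with an adjusted p-value of 0.323 in limma and 0.0471 in DESeq2. INSR, the insulin receptor, which in its short form also binds IGF2, had 636 ± 102 normalized counts in the P group (SD, n = 6) and 908 ± 184 in the NP group (SD, n = 5), with a log2 fold change of 0.50 (SE 0.16; adjusted p = 0.434 in limma). GHR, the growth hormone receptor, had 381 ± 146 (SD, n = 6) and 599 ± 180 (SD, n = 5), with a log2 fold change of 0.68 (SE 0.25; adjusted p = 0.514 in limma). The values of P904 were again the highest P values for GHR (656.2) and INSR (785.6).

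Among 18 tested genes of the PI3K, AKT, mTOR and FOXO branch, 8 were above 0 and 10 below, with a median of -0.065. PIK3R1, the regulatory subunit of PI3K, had 1077 ± 328 normalized counts in the P group (SD, n = 6) and 1667 ± 427 in the NP group (SD, n = 5), with a log2 fold change of 0.65 (SE 0.23; adjusted p = 0.496 in limma). It was 0.30 (unadjusted p = 0.159) with the smooth muscle score as a covariate. The kinase MTOR was at -0.063 and the transcription factor FOXO1, which AKT keeps out of the nucleus, was at -0.33, with adjusted p-values of 0.950 and 0.865 in limma. Of the 4 genes for RNA binding and trafficking, 3 were above 0 and none had an unadjusted p-value under 0.05.

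**Figure D5:**
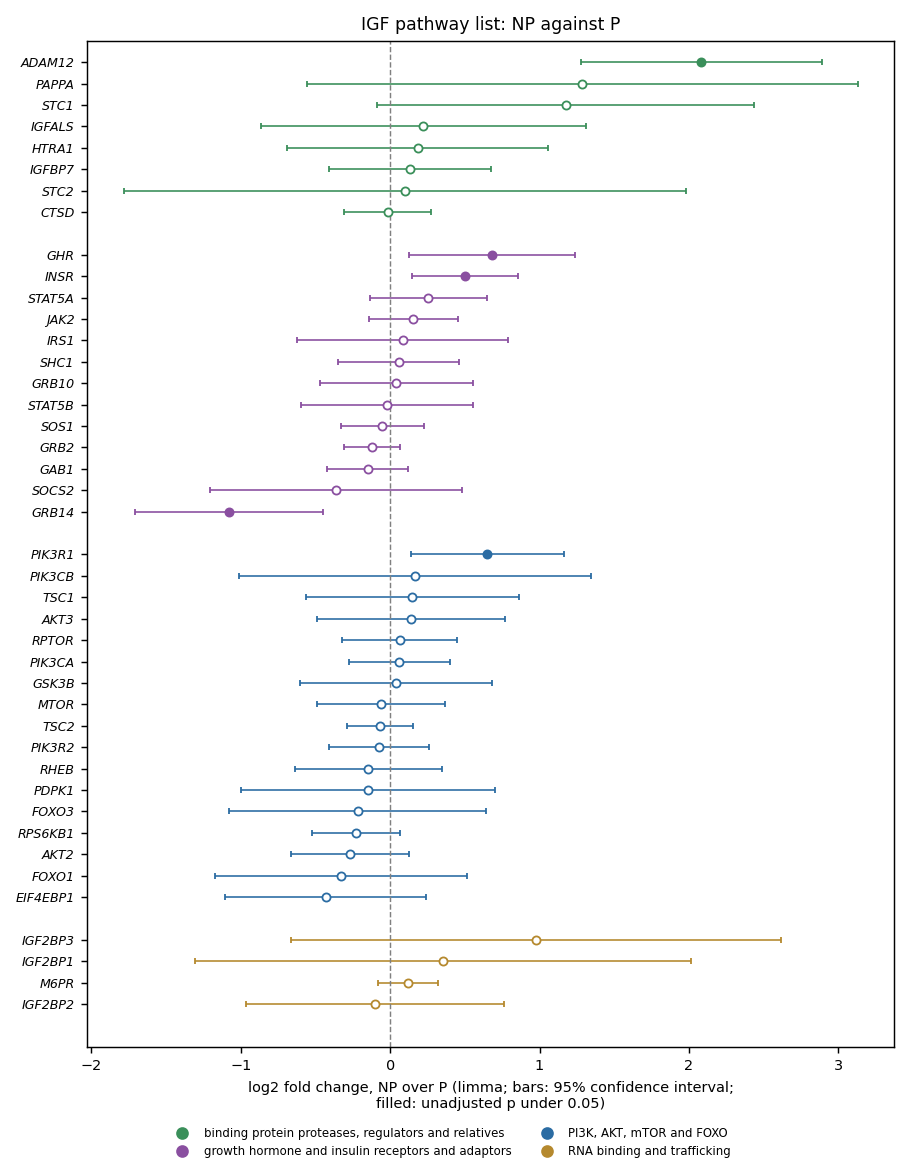
Log2 fold change (NP over P) of genes of the pathway list, with 95% confidence intervals from limma, ordered within 4 roles; filled points had an unadjusted p-value under 0.05. ADAM12 at 2.08 and GRB14 at -1.08 lay at the ends, and the PI3K, AKT, mTOR and FOXO genes were centred near 0.

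The genes whose expression was most like that of the ligands were ranked by Pearson's r over the 11 cows, as a description. For IGF1 these were NDN (r = 0.953), ARHGEF40 (0.948), WT1 (0.935), NID2 (0.935) and RECK (0.933). NDN is a growth suppressor subject to imprinting, WT1 a transcription factor, NID2 a basement membrane protein and RECK an inhibitor of metalloproteases. These values were, without P617 and P1541, 0.915 to 0.959. For IGF2 they were DNM3 (r = 0.944), INSRR (0.936), LRRC4C (0.933), OSR1 (0.922) and LOC788205 (0.922), with values of 0.863 to 0.93 without these cows. The range was 0.93 to 0.97 for the genes like IGF1 and 0.788 to 0.922 for those like IGF2 when r was taken on deviations from the group means. DNM3 is a dynamin, INSRR a receptor related to the insulin receptor, LRRC4C a synaptic adhesion protein and OSR1 a transcription factor. The lists for IGF1 and IGF2 had no gene in common, and the cows share both the library and the differences in cell makeup described for the markers.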

How the data were processed

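RNA-Seq of 11 endometrial biopsies (6 P, 5 NP) was analysed. According to the study's methods and the submitters' processing notes, the authors called bases with CASAVA 1.8.2, mapped filtered reads to UMD3.1 with Bowtie2 2.1.0, counted reads per gene with HTSeq 0.5.4p2 and normalized with DESeq2 (1.12.1 in the notes). The gene annotation and the use of strand in counting are not given in the sources used here, so overlapping genes and genes with near-identical copies are uncertain. The authors deposited a signal per gene and cow, the read count divided by a size factor, and every value was a whole multiple of 1 read (100% of values within 0.01 read). Depth was 9290949 to 13569085 reads, and counting error matters for genes near the mean of 5 normalized counts below which genes were not tested.

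The main test was limma 3.58.1 in R 4.3.3 (lmFit, eBayes with trend) on log2(normalized count + 1) over 15081 genes. The study used DESeq2; DESeq2 1.42.0 and edgeR 4.0.16 on recovered reads were alternatives because the deposited values are normalized. Exact permutation tests, two-sided, were used for single values and for differences within a cow. For correlations over all cows, and without P617 and P1541, 100000 permutations were drawn with numpy 2.4.6. Correlations within P cows were tested with exact permutations in scipy 1.17.1. The exact tests of single members between the groups were not adjusted over the members. Alternatives also covered TMM, a pseudocount of 8, the filter, leaving out cows and marker scores as covariates. The stromal and endothelial covariates and the set without P617, P1541 and NP638 were chosen after seeing the data. The limma, edgeR and DESeq2 tests were run on simulated counts with a single dispersion and no differences in cell makeup between cows. That run cannot show how they behave with cows that stand apart, such as P617 and P1541. Members and lists were chosen with earlier results of these data known. The genes named are all members, the pathway genes with an unadjusted p-value under 0.05 or at least the 6 with the smallest (1 of these is not reported here), and the 5 genes most like each ligand; PAPPA, STC1, MTOR, FOXO1 and CTSD were added by role or as the exception of a count, after their values were seen. Sequences, coordinates and levels per gene length are not given here.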

Additional observations from a re-analysis of the deposited data

Results flagged for a closer look

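In 16 genes (the 10 members and 6 named pathway genes) and 32 groups of cows examined, 3 values, in 2 cows, lay far from the rest of their group. The rule was Dixon's test, the gap to the next cow over the range of the group. It flags about 1 in 20 groups of independent, normally distributed values. Here it was applied to unlogged counts of genes from the same cows, so no excess over chance can be read from the flags. Cow P617 was at 12.4 normalized counts for IGFBP1, against at most 1 in the other P cows. The same cow was at 876.6 for GRB14, against 485.7 in the next P cow. Cow P904 was at 656.2 for GHR, against 388.1 in the next P cow and a mean of 599 in NP cows.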

How the results depend on the processing

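The number of genes called was 0 in limma, with 1182 at an unadjusted p-value under 0.05, and was 201 with DESeq2, 0 to 171 on leaving out single cows (171 without P904), 17 without P617 and P1541, 110 with the epithelial score and 3999 with the stromal score as a covariate. For the members these counts were 1 (DESeq2), 0 to 1 (each cow left out), 1 (epithelial score) and 2 (stromal score, IGF2 and IGFBP4), and for the pathway list 2, 0 to 1, 1 without P617 and P1541, 1 and 9. With the stromal score IGF2 was called as higher in NP cows and IGFBP4 as higher in P cows. That fit called 3999 of the 15081 genes tested, beside 2 of the 9 members and 9 of the 43 pathway genes. The fits with edgeR (1151 genes at an unadjusted p-value under 0.05), TMM, the other pseudocount and the other filters called 0 genes. Signs turned with the stromal score for IGF1 (-0.083), IGF1R (0.52), IGFBP3 (-0.38), IGFBP4 (-0.51) and IGFBP6 (-0.25), with the smooth muscle score for IGFBP5 (0.38), and with DESeq2 and edgeR for IGFBP3 (-0.034 and -0.020) and IGFBP4 (-0.033 and -0.019). Leaving out single cows, the log2 fold change ranged from -0.29 to 0.088 for IGF1R, from -0.093 to 0.33 for IGFBP3 and from -0.053 to 0.34 for IGFBP4. IGF2 minus IGF1 was -0.34 without P617 and P1541 and -0.083 without NP638 as well. The number of members related to the smooth muscle score at an adjusted p-value for r under 0.05 was 2, and 0 without the 2 farthest cows, where r was -0.669 for IGF2 (adjusted p = 0.229) and 0.824 for IGFBP5 (adjusted p = 0.0797) by permutation. The cause was not tested for any of these. IGF2, IGF2R and IGFBP2 were higher in NP cows in all 23 alternatives, with log2 fold changes of 0.81 to 1.58, 0.080 to 0.48 and 0.94 to 2.48. IGF2 had adjusted p-values from 0.0175 to 1.00 in them, and it also passed with the epithelial score (0.0806) and the stromal score (0.0241). No paired analysis was possible because the groups share no replicate numbers. Differences of the size of those in IGF2R or IGFBP3 were within the spread between cows.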

Other observations

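Cow P904, diagnosed as pregnant, lay within the range of NP cows in several genes of the system. It was the highest P cow for IGF2 (6413), IGFBP2 (340.1), ADAM12 (293.2), INSR (785.6) and GHR (656.2), which were all higher on average in NP cows, and the lowest P cow for GRB14 (293.2), which was higher on average in P cows. For ADAM12 and GRB14 it nevertheless remained on the side of the P cows. P904 was also outside the range of NP cows for IGF1 (238.5, against 296.8 in the lowest NP cow), IGF2R (612.2 against 751.2) and IGFBP6 (2092 against 2261). Among P cows it also had the highest endothelial and immune marker scores (10.36 and 5.85) and the lowest smooth muscle score (12.59), and the part of these in the values was not tested. This cow was singled out after its values were seen, and no test was made.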
